A study of Rattus norvegicus with 12 samples.

Results

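The proteasome genes of the rat left ventricle were followed through a design that crossed dietary sodium with angiotensin II (AngII) infusion. They were all genes whose current symbol starts with Psma, Psmb, Psmc, Psmd or Psme and a number, leaving out the interferon-induced Psmb8, Psmb9, Psmb10, Psme1 and Psme2. The RefSeq gene table held 89 such genes, of which 43 were protein coding and 46 pseudogenes, and 38 had a probe on the array. Of these, 37 were tested, among 11211 genes tested in all, each by its brightest probe. Each of the 37 probes was well above background on all 12 arrays. Psma8, known as the testis-specific alpha subunit, had 3 probes and was not tested, because none was well above background on all 3 arrays of any group. No probe was matched to Psmd11, Psmb11, Psmb3l1, Psmb3l2, Psmb6l1 or the pseudogenes. The symbols Psmc3ip and Psme3ip1 meet the rule, but these genes encode partner proteins of subunits and no subunit.

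All rats were male Sprague-Dawley and ate a diet with 60% fructose for 8 weeks, a model of metabolic syndrome, so no group shows ventricles without fructose feeding. The 4 groups had 3 arrays each, 1 left ventricle per array: low sodium (NaCl below 0.01%) with AngII, low sodium without it, normal sodium (NaCl 0.64%) with AngII, and normal sodium without it. AngII, the pressor peptide of the renin-angiotensin system, was infused under the skin at 200 ng/kg/min during the second 4 weeks. The labels name no vehicle infusion for the other rats.

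The proteasome is the protease complex that degrades proteins tagged with ubiquitin. Its barrel-shaped core has outer rings of alpha subunits, which gate the entrance, and inner rings of beta subunits, of which Psmb5, Psmb6 and Psmb7 carry the proteolytic sites. A regulatory cap recognises the tagged protein, removes the ubiquitin and threads the unfolded chain into the core through a ring of ATPases. In heart muscle the complex clears damaged and sarcomeric proteins. In mammalian cells its subunit genes are known to be raised together by the transcription factor Nfe2l1 when proteolysis is blocked, through antioxidant response elements in their promoters.

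To show what the promoters of these genes share, the 250 bases before each transcription start were searched on both strands for the core of that element, TGACNNNGC, and for the CCAAT box, CCAAT. RefSeq promoters (GRCr8) were found for 33 of the 37 genes. TGACNNNGC was present in 7 of them, 21.2%, against 10.1% of 33469 promoters of that length. CCAAT was present in 19, 57.6%, against 34% of all promoters, and 3 genes held both. The 19 include Psmc3ip and Psme3ip1, which encode no subunit. All promoters belong to 27457 symbols, so some symbols count more than once, whereas each of the 33 genes has 1 promoter. The stretches that hold TGACNNNGC are given for all 7 genes, read on the strand of the gene, with the motif in capitals. The last 3 lines hold it on the opposite strand, and that of Psma3 ends at the transcription start. A match is a description of the letters and not a binding site, and CCAAT and TGACNNNGC can overlap by a base, as they did in Psmb2.

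Psmb5, chr15:32047419-32047451, minus strand: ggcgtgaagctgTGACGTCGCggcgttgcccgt

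Psmb6, chr10:55737852-55737884, plus strand: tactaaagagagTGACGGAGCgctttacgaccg

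Psmb2, chr5:144254978-144255010, plus strand: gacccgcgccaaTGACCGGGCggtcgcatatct

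Psmd1, chr9:94157794-94157826, plus strand: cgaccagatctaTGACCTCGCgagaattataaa

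Psmd9, chr12:39018321-39018353, minus strand: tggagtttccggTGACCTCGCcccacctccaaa

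Psmd9, chr12:39018368-39018400, minus strand: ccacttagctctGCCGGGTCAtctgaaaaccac

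Psma3, chr6:95219725-95219748, plus strand: gttctgtggcctGCCGGGTCAgca

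Psme4, chr14:108706576-108706608, plus strand: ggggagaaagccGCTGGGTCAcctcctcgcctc

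Values are log2 of the background-subtracted signal minus the 75th percentile of its array, called log2 signal below, so that 0 marks that percentile. The percentile lay between 1399 and 1988 intensity units. The number of arrays limits the precision. The normal sodium array of replicate 1 stood apart, with 88 spots flagged as non-uniform where the rest had 0 to 3, and it gave the highest or lowest of the 12 values for 19 of the 37 genes, 51.4%, against 40.5% of all probes. The main ones of these 37 genes are also given without it in the comparisons that use it. All 6 cardiomyocyte markers were measured, with a summed level of 883 to 1084 times the 75th percentile in low sodium with AngII, 959 to 1108 in low sodium, 1033 to 1153 in normal sodium with AngII and 930 to 1278 in normal sodium. The ranges of the 4 groups overlapped. In whole ventricle, fewer cells of a type and less RNA per cell cannot be told apart.

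The proteasome genes differed little between the groups. None of the 37 passed limma's test at an adjusted p of 0.05 in any of 7 comparisons, nor did any of the 20020 probes tested. In the 4 comparisons of single groups, 30 of the 37 genes differed by less than 1.2-fold each time and all 37 by less than 1.5-fold. Shares of all probes over the 4 comparisons together were not computed. Taken singly, 69.6% to 87.6% of all probes differed by less than 1.2-fold. The smallest adjusted p among the 259 tests was 0.2973, for Psmc6, and the smallest unadjusted p was 0.0071, for Psmd9. A p that misses the threshold does not show that levels were equal, so the 95% interval of each difference is given with it.

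**Figure D1:**
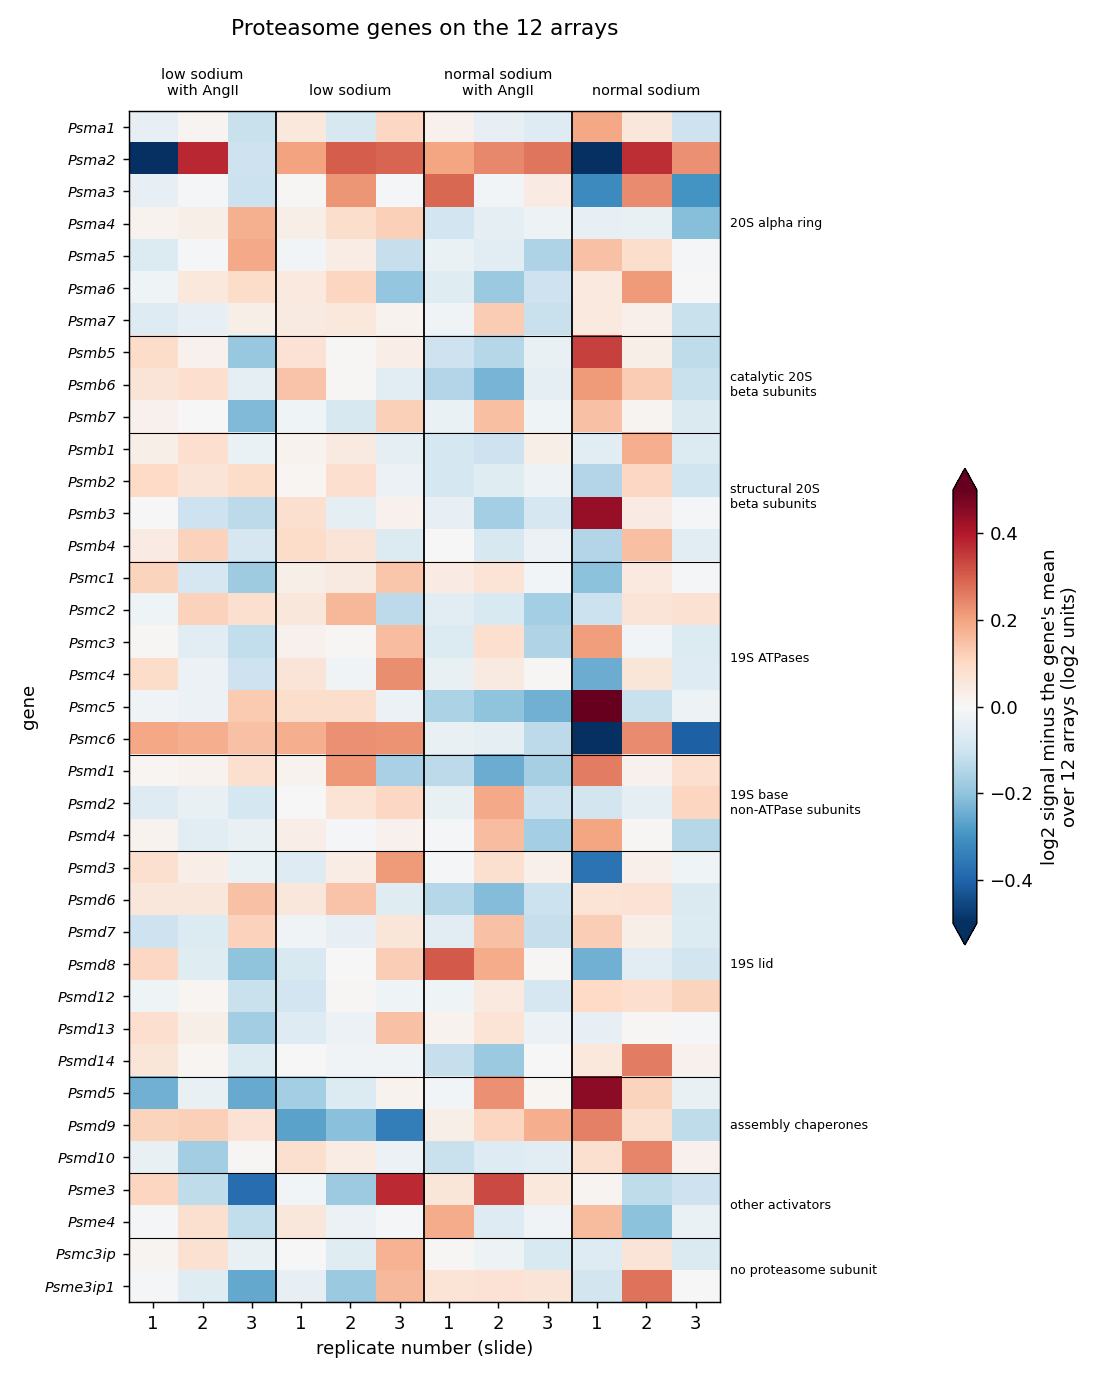
Log2 signal of the 37 genes on each of the 12 arrays, as the difference from the gene's own mean over the arrays (colour scale in log2 units, ends capped), with genes in rows by role and arrays in columns by group and replicate number. Most cells are pale, and the darkest lie in the normal sodium array of replicate 1 and in the row of Psma2.

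The first question was what AngII does when salt is not restricted. The intervals of the catalytic subunits all included 0. Psmb5, the chymotrypsin-like site, had log2 signals of 4.01, 3.97 and 4.08 in normal sodium with AngII, against 4.46, 4.15 and 3.99 in normal sodium. The value of 4.46 belonged to the array that stood apart, and the groups overlapped. The difference was -0.18 ± 0.13 (limma standard error, 3 arrays per group), with an interval of -0.47 to 0.11 and adjusted p = 0.7449, and it was -0.05 without that array. Psmb6, the caspase-like site, had 2.34, 2.25 and 2.43 in normal sodium with AngII, against 2.70, 2.61 and 2.37 in normal sodium. The lowest normal sodium value lay inside the infused range. The difference was -0.22 ± 0.12, interval -0.47 to 0.04, adjusted p = 0.6722, and -0.15 without that array. Psmb7, the trypsin-like site, averaged 2.87 ± 0.10 in normal sodium with AngII and 2.87 ± 0.11 in normal sodium (SD, n = 3 each). Its difference of 0.00 had an interval of -0.25 to 0.26 and was 0.06 without that array, and its sign turned under median scaling (-0.06), normexp (-0.04) and scaling over probes (-0.03).

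Of the 37 genes, 2 had an unadjusted p under 0.05 on normal sodium, 5.41%, against 7.26% of all probes tested, and 0 an adjusted one, against 0% of all probes. Without the array that stood apart 0 of the 37 had an unadjusted p under 0.05, and with the slide as a block 1 did. Psmd1, the largest scaffold of the cap's base, had log2 signals of 4.69, 4.57 and 4.65 in normal sodium with AngII, against 5.07, 4.84 and 4.90 in normal sodium. All 3 infused arrays lay below all 3 others. The difference was -0.30 ± 0.12, or 1.23-fold lower in infused rats, with an interval of -0.56 to -0.04 and adjusted p = 0.6688. Slides 1, 2 and 3 gave -0.39, -0.27 and -0.25, and the value without the array that stood apart was -0.24. Psmd8, a lid subunit, had 1.97, 1.85 and 1.67 in normal sodium with AngII, against 1.43, 1.61 and 1.57 in normal sodium. Again the groups did not overlap, this time with the infused arrays higher. The difference was 0.29 ± 0.12 (interval 0.02 to 0.57, adjusted p = 0.6688), but it was 0.24 without the array that stood apart, 0.06 after normexp background correction and 0.17 in the authors' own matrix. With the slide as a block its unadjusted p was 0.0552.

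A pair of further genes had the next smallest p in each direction. Psma3, an alpha subunit, had -0.15, -0.45 and -0.40 in normal sodium with AngII, against -0.76, -0.20 and -0.74 in normal sodium. The groups overlapped through replicate 2, and the difference was 0.23 ± 0.16 (adjusted p = 0.7109). It was 0.14 without the array that stood apart, 0.05 without slide 1 and 0.50 in the authors' matrix. Psmc5, an ATPase, had 5.02, 4.98 and 4.94 in normal sodium with AngII, against 5.69, 5.07 and 5.16 in normal sodium. The infused arrays were lower on every slide, and the size rested on the array that stood apart: -0.32 ± 0.15 (adjusted p = 0.6688) with it and -0.13 without it.

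By role, 4 of 7 alpha subunits, 1 of 3 catalytic and 0 of 4 structural beta subunits lay above 0 (2 of the structural ones with quantile normalization and 1 in the authors' matrix), and so did 3 of 6 ATPases, 3 of 7 lid subunits, 1 of 3 base subunits and 1 of 3 assembly chaperones. Over all 37 genes the median difference was -0.02, against 0.02 for all probes, and 16 lay above 0, against 54.2% of all probes. With median scaling of the arrays the genes' median was -0.08 and in the authors' matrix 0.02, so its direction depends on the scaling. In 9 genes all 3 infused arrays lay below all 3 others, 24.3% against 5.53% of all probes: Psma5, Psma6, Psmb3, Psmc5, Psmd1, Psmd6, Psmd10, Psmd12 and Psmd14. Their differences were between -0.32 and -0.12. The count depends on the scaling and was 7 with median scaling, 4 with quantile normalization, 3 in the authors' matrix and 10 after normexp. Psmd8 and Psme3 lay above in the same sense, 5.41% against 7.44%. Of the 37 intervals, 33 lay within 1.5-fold either way, against 51.4% of all probes, and 33 differences were under 1.2-fold, against 72.5%.

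On low sodium the AngII comparison shows the infusion under salt restriction. Differences were small again, and 35 of the 37 genes differed by less than 1.2-fold, against 87.6% of all probes. Psmb5 had 4.21, 4.14 and 3.93 in low sodium with AngII, against 4.19, 4.12 and 4.15 in low sodium. Only replicate 3 of the infused rats lay apart, on the low side. The difference was -0.06 ± 0.13, interval -0.35 to 0.23. Psmb6 averaged 2.52 ± 0.07 in low sodium with AngII and 2.51 ± 0.10 in low sodium (SD, n = 3 each), a difference of 0.01 with an interval of -0.25 to 0.26 that was -0.01 in the authors' matrix. Psmb7 averaged 2.77 ± 0.13 in low sodium with AngII and 2.84 ± 0.10 in low sodium, a difference of -0.07 with an interval of -0.33 to 0.18. All 3 catalytic genes overlapped between the groups.

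The gene that stood out was Psmd9, a chaperone that helps build the ATPase ring. It had log2 signals of 1.02, 1.03 and 0.98 in low sodium with AngII, against 0.64, 0.70 and 0.57 in low sodium. The 3 infused values lay close together and above all 3 others. The difference was 0.38 ± 0.11, or 1.30-fold, with an interval of 0.13 to 0.62, an unadjusted p of 0.0071 and an adjusted p of 1. It was 0.38, 0.33 and 0.42 on slides 1, 2 and 3, and 0.34 to 0.38 after normexp, quantile or median scaling and in the authors' matrix. A second, dimmer probe of Psmd9 gave 0.27. Psmd9 was the single gene with an unadjusted p under 0.05, 2.70% of the 37 against 1.71% of all probes, and the single one whose infused arrays all lay above the others, against 3.08% of all probes. With median scaling no gene kept its arrays apart in this comparison.

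The other genes named in this comparison overlapped or differed by less. Psma5, an alpha subunit, had 2.24, 2.30 and 2.496 in low sodium with AngII, against 2.29, 2.35 and 2.19 in low sodium, a difference of 0.07 ± 0.11. Psme3, the nuclear activator PA28 gamma, had -0.23, -0.47 and -0.72 in low sodium with AngII, against -0.36, -0.52 and 0.03 in low sodium. The groups overlapped, and the difference of -0.19 ± 0.17 turned to 0.09 without replicate 3. Psmd2, the other large scaffold of the base, had 4.12, 4.15 and 4.09 in low sodium with AngII, against 4.19, 4.25 and 4.28 in low sodium. All infused arrays lay below (-0.12 ± 0.11, adjusted p = 1), and no other gene showed this, 2.70% against 3.04% of all probes. The median over the 37 genes was -0.04, against -0.02 for all probes, and 10 lay above 0, against 45% of all probes. The interval lay within 1.5-fold in 35 genes, against 61.1% of all probes.

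**Figure D2:**
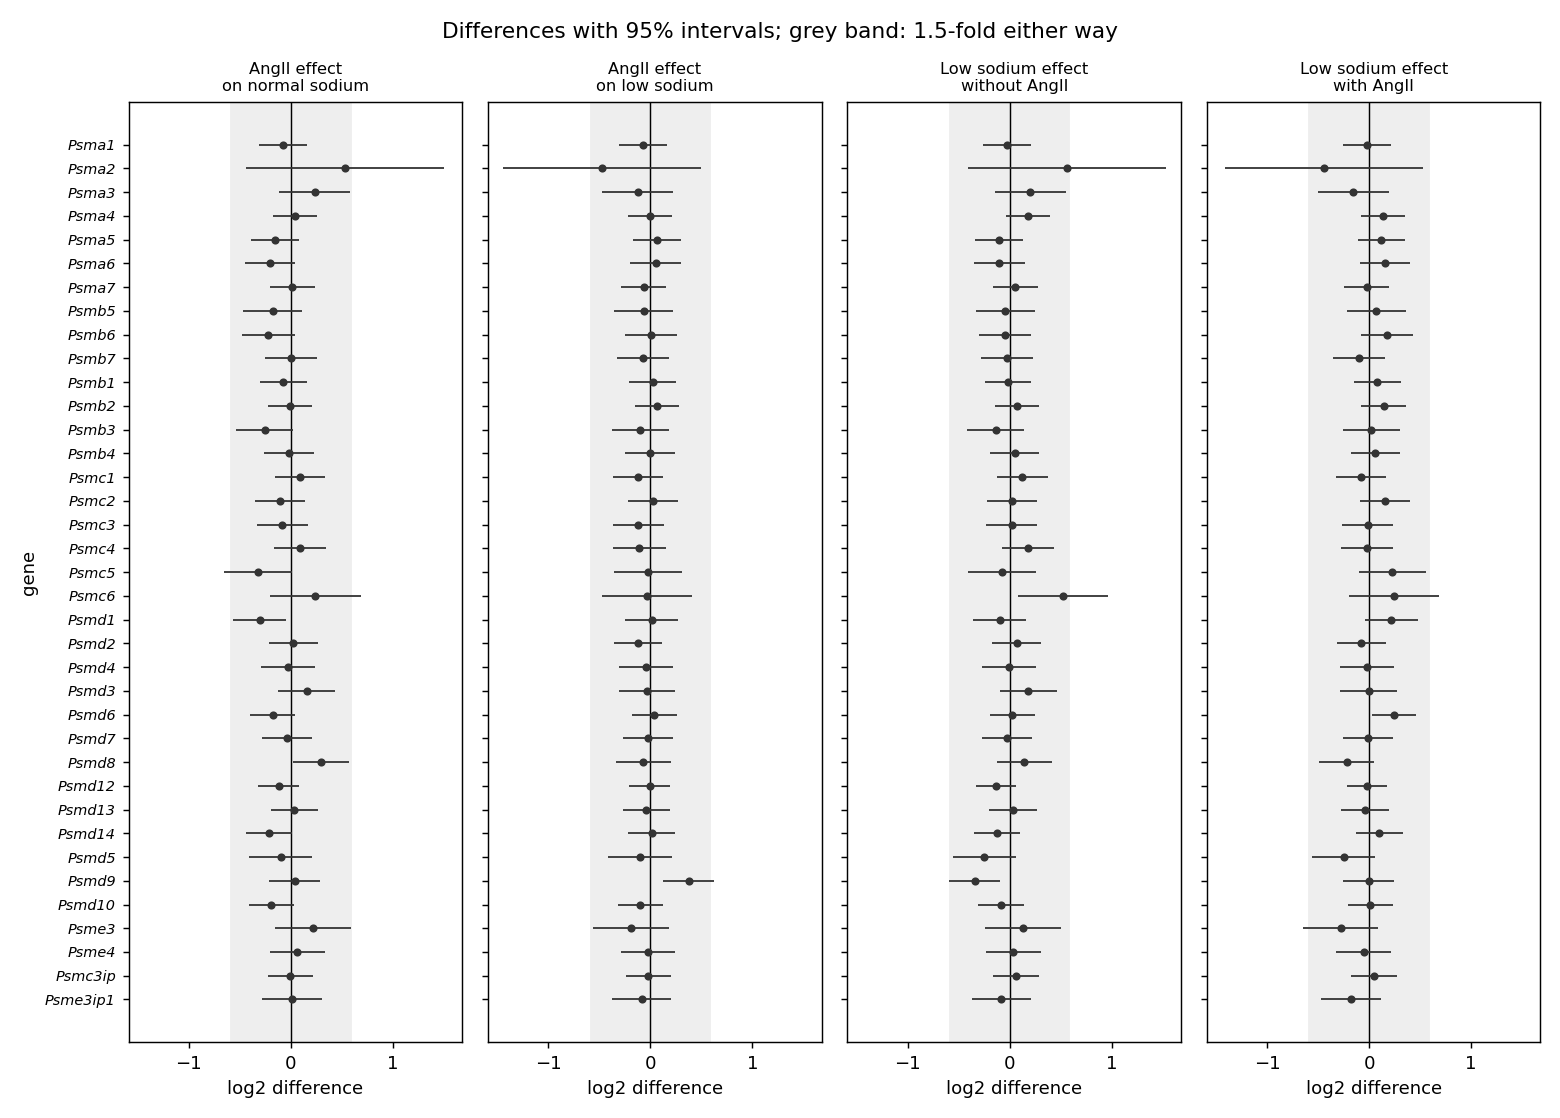
Log2 difference of each gene with its 95% interval from limma (dots and lines) in the 4 comparisons of single groups (with AngII over without, low sodium over normal), with a grey band for 1.5-fold either way. Most intervals lie inside the band, and the widest by far is that of Psma2.

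Salt restriction without AngII was the next comparison, low sodium over normal sodium. The catalytic genes differed by -0.04 ± 0.13 for Psmb5, -0.05 ± 0.12 for Psmb6 and -0.02 ± 0.12 for Psmb7, with group means of 4.15, 2.51 and 2.84 in low sodium and 4.20, 2.56 and 2.87 in normal sodium. These 3 signs turned under median scaling, with array weights and without the array that stood apart, where the differences were 0.09, 0.02 and 0.04. The largest difference among genes with a small p was that of Psmc6, an ATPase of the ring. Psmc6 had -0.42, -0.37 and -0.37 in low sodium, against -1.36, -0.36 and -1.01 in normal sodium. Replicate 2 of the normal sodium rats lay level with the low sodium arrays, and the other 2 lay far below them. The difference was 0.52 ± 0.20, or 1.44-fold, with an interval of 0.08 to 0.97 and adjusted p = 0.6546. Slides 1, 2 and 3 gave 0.95, -0.01 and 0.63. Leaving out the normal sodium array of replicate 1 gave 0.30 and leaving out that of replicate 2 gave 0.80 (adjusted p = 0.08352), so single arrays of that group set its size.

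Psmd9 was the other gene with a small p. Its values of 0.64, 0.70 and 0.57 in low sodium stood against 1.17, 0.99 and 0.79 in normal sodium. The groups did not overlap, although the gap between the nearest arrays was small beside the spread in normal sodium. The difference was -0.34 ± 0.11 (interval -0.59 to -0.09, adjusted p = 0.6237), -0.25 without the array that stood apart, -0.23 with array weights and -0.19 for the second probe. The low sodium arrays without AngII enter both comparisons of single groups in which Psmd9 had a small p. They also enter the AngII difference averaged over both diets, given below, where its unadjusted p was again under 0.05. Psma4, an alpha subunit, had 2.79, 2.85 and 2.88 in low sodium, against 2.72, 2.72 and 2.55 in normal sodium, with no overlap and a difference of 0.18 ± 0.10 (adjusted p = 0.7457), or 0.20 without the array that stood apart. Psmd5, a chaperone of the base, had -1.55, -1.45 and -1.36 in low sodium, against -0.93, -1.27 and -1.41 in normal sodium. The highest value was again that of the array that stood apart, and the difference of -0.25 ± 0.14 was -0.11 without it and -0.04 in the authors' matrix.

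Of the 37 genes, 2 had an unadjusted p under 0.05 on low sodium without AngII, 5.41% against 7.03% of all probes, and 1 did without the array that stood apart. All low sodium arrays lay above the others in 1 gene, against 5.01% of all probes, and below them in 3, Psmd9, Psmd12 and Psmd14, 8.11% against 5.87%. The median over the genes was 0.02, against -0.01 for all probes, and 19 lay above 0, against 48.3% of all probes. Without the array that stood apart the median was 0.03 and 24 lay above 0. Differences were under 1.2-fold in 34 genes, against 73.2% of all probes, and intervals within 1.5-fold in 34, against 51.7%. All 3 assembly chaperones were below 0 (Psmd9, Psmd5 and, at -0.08, Psmd10), and remained below 0 under median scaling, quantile normalization and normexp and in the authors' matrix. Of the 6 ATPases, 5 were above 0, and 4 after normexp. None of these passed the test.

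Under AngII, low sodium over normal sodium had 1 gene of the 37 with an unadjusted p under 0.05, 2.70%, against 11.1% of all probes, the highest share among the 4 comparisons of single groups. The gene was Psmd6, a lid subunit. It had 3.31, 3.31 and 3.40 in low sodium with AngII, against 3.11, 3.04 and 3.15 in normal sodium with AngII. No values overlapped and the slides gave 0.20, 0.27 and 0.26. The difference was 0.24 ± 0.10, or 1.18-fold, with an interval of 0.02 to 0.46 and adjusted p = 0.4133. With the slide as a block its unadjusted p was 0.0587 and 0 of the 37 genes had one under 0.05. Leaving out the array that stood apart, which enters this comparison only through the shared spread, gave 3 such genes. Psmd1 had 4.83, 4.84 and 4.90 in low sodium with AngII, against 4.69, 4.57 and 4.65 in normal sodium with AngII. Its low sodium arrays all lay higher, by 0.22 ± 0.12 (interval -0.04 to 0.48, adjusted p = 0.5199). In the other direction, Psmd8 had 1.77, 1.61 and 1.47 in low sodium with AngII, against 1.97, 1.85 and 1.67 in normal sodium with AngII, which overlapped (-0.22 ± 0.12). Psmd5 had -1.62, -1.41 and -1.63 in low sodium with AngII, against -1.39, -1.15 and -1.37 in normal sodium with AngII. It lay lower without overlap, with a difference of -0.25 ± 0.14 (adjusted p = 0.5391).

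Among the catalytic subunits, Psmb5 averaged 4.09 ± 0.15 in low sodium with AngII and 4.02 ± 0.05 in normal sodium with AngII, a difference of 0.07 (interval -0.22 to 0.36). Psmb6 averaged 2.52 ± 0.07 in low sodium with AngII and 2.34 ± 0.09 in normal sodium with AngII, a difference of 0.18 (interval -0.08 to 0.43, adjusted p = 0.5932). Psmb7 averaged 2.77 ± 0.13 in low sodium with AngII and 2.87 ± 0.10 in normal sodium with AngII, a difference of -0.10 (interval -0.35 to 0.15) that was 0.02 under median scaling. All 3 differences were within 1.5-fold, and all 3 intervals included 0. Their signs differed on the main scaling, while all 3 lay above 0 under median scaling.

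In 9 genes all low sodium arrays lay above all normal sodium arrays under AngII: Psma4, Psma6, Psmb2, Psmb6, Psmc2, Psmc5, Psmc6, Psmd1 and Psmd6, 24.3% against 9.92% of all probes. Psmd5 and Psme3ip1 lay below, 5.41% against 12.3%. The 3 normal sodium arrays with AngII enter this comparison and the AngII comparison on normal sodium, so both counts of 9 lean on the same arrays. The count here was 2 with median scaling, 5 with quantile normalization, 4 in the authors' matrix and 11 after normexp. All 4 structural beta subunits lay above 0 (0.02 to 0.14), but 3 with quantile normalization and 2 in the authors' matrix. The median over the 37 genes was -0.01, against -0.05 for all probes, and 17 lay above 0, against 41.8% of all probes. Differences were under 1.2-fold in 35 genes, against 69.6% of all probes, and intervals within 1.5-fold in 34, against 48.2%. Median scaling moved the median of all probes to 0.06 and that of the genes to 0.11. The genes' median minus that of all probes was 0.05 under both scalings. Each of them shifts all values of an array alike, so this difference could not change between them. With quantile normalization it was -0.03 and in the authors' matrix -0.12.

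**Figure D3:**
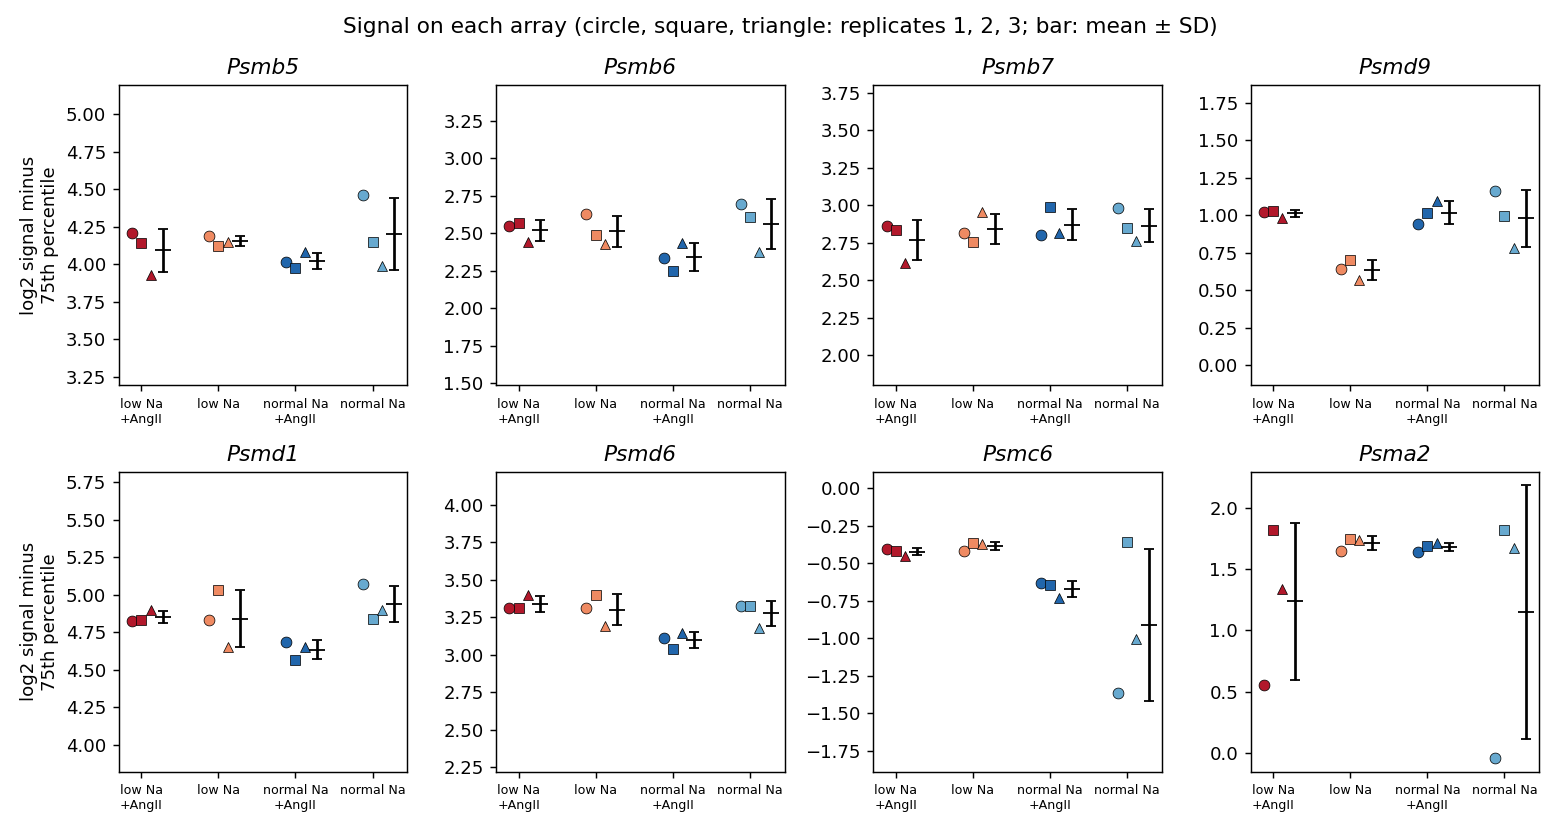
Log2 signal of 8 genes on each array by group, with the group mean and SD beside the points and symbols for the replicate number. Psmd9 is low on the 3 low sodium arrays without AngII, and Psma2 and Psmc6 have single arrays far below the rest.

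Averaged over both diets, the AngII difference had an unadjusted p under 0.05 in 1 gene, Psmd9, 2.70% against 2.88% of all probes. Its average difference was 0.21 ± 0.08 (adjusted p = 0.9999), or 0.25 without the array that stood apart. The next gene by p on the higher side was Psmd8 at 0.11 ± 0.09. On the lower side the first were Psmb3, a structural beta subunit, at -0.18 ± 0.09 and Psmd10, the chaperone known as gankyrin, at -0.14 ± 0.07, which were -0.11 and -0.15 without that array. The catalytic genes kept small differences, with Psmb5, Psmb6 and Psmb7 at -0.12, -0.11 and -0.03, or -0.05, -0.07 and -0.0048 without it. Averaged over infusion, low sodium had 3 such genes, 8.11% against 12.5% of all probes: Psmc6 at 0.39 ± 0.14 (adjusted p = 0.2973), Psma4 at 0.15 ± 0.07 (adjusted p = 0.3927) and Psmd5 at -0.25 ± 0.10 (adjusted p = 0.3353). Without the array that stood apart these were 0.27, 0.17 and -0.18. With the slide as a block Psma4 had an unadjusted p of 0.0814, leaving 2 genes under 0.05. Psmd9 followed at -0.17 ± 0.08 (-0.13 without that array). The catalytic genes stayed near 0, with Psmb5, Psmb6 and Psmb7 at 0.01, 0.07 and -0.06, or 0.08, 0.10 and -0.03 without that array.

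The interaction, in which the AngII difference on normal sodium is taken from the one on low sodium, tests whether the diet changed the response. None of the 37 genes had even an unadjusted p under 0.05, against 5.06% of all probes. Psmd9 came to 0.34 ± 0.16 (interval -0.01 to 0.69, adjusted p = 0.8574), since its AngII difference was 0.38 on low sodium and 0.04 on normal sodium. Its second probe gave -0.05, from 0.27 on low sodium and 0.32 on normal sodium, so the probes of this gene disagree about any dependence on diet. Psmd1 came to 0.32 ± 0.17, Psmd8 to -0.36 ± 0.17 and Psme3 to -0.41 ± 0.24, each with adjusted p = 0.8574. Without the array that stood apart Psmd9, Psmd1, Psmd8 and Psme3 gave 0.25, 0.25, -0.31 and -0.45. For the catalytic Psmb5, Psmb6 and Psmb7 the interaction was 0.11, 0.23 and -0.08, with intervals of -0.30 to 0.52, -0.14 to 0.59 and -0.44 to 0.28, and the values without that array were -0.02, 0.16 and -0.14. An interaction of up to 1.5-fold was thus bounded on both sides in 27 of the 37 genes, against 24.1% of all probes.

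The genes varied little between arrays of a group, which differ in both rat and slide. The standard deviation within groups had a median of 0.11 over the 37 genes, against 0.22 over all probes tested, and ranged from 0.05 for Psmd12, a lid subunit, to 0.61 for Psma2, an alpha subunit. All 37 were well above background on every array, which the test did not require of other probes. They were also bright, with 31 of the 37 above the 75th percentile, against 31.4% of all probes. Whether their small spread, narrow intervals and small differences go with that brightness was not tested. Only Psma2 and Psmc6, at 0.26, lay above the median of all probes. Psma2 had 0.55, 1.82 and 1.34 in low sodium with AngII, 1.64, 1.75 and 1.73 in low sodium, 1.64, 1.68 and 1.71 in normal sodium with AngII, and -0.04, 1.81 and 1.67 in normal sodium. Both lowest values came from slide 1, in the low sodium with AngII and normal sodium arrays of replicate 1. The next lowest, 1.34, was that of replicate 3 in low sodium with AngII, and the rest lay between 1.64 and 1.82. Its difference for AngII was -0.47 ± 0.44 on low sodium and 0.53 ± 0.44 on normal sodium, and without slide 1 these were -0.16 and -0.05. No other alpha subunit lay as far from its own mean on those slide 1 arrays.

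**Figure D4:**
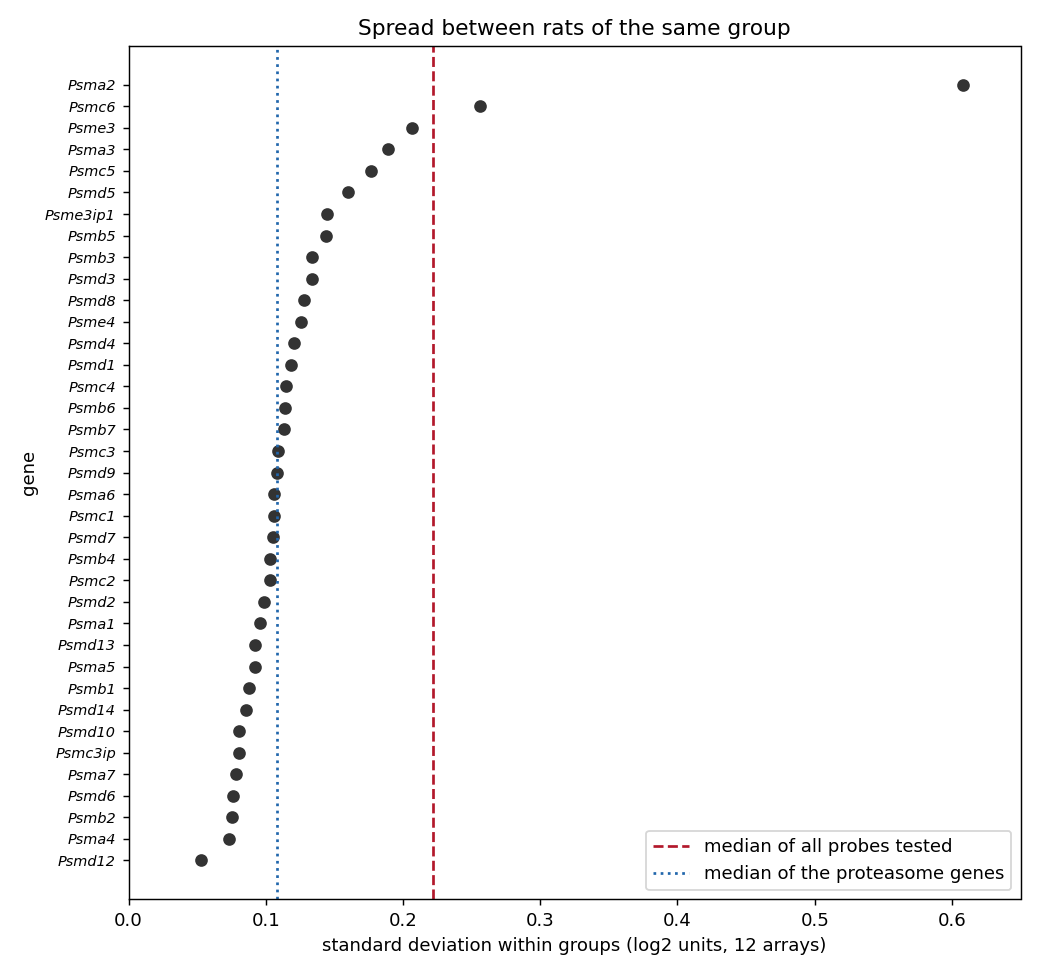
Standard deviation of log2 signal within groups for each of the 37 genes (dots), pooled over the 4 groups, with the medians of these genes (dotted line) and of all probes tested (dashed line). All but Psma2 and Psmc6 lie left of the dashed line.

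Other genes of the pathway were listed by role: the interferon-induced subunits and activator, assembly factors, ubiquitin receptors and deubiquitinases, transcription factors, and ubiquitin genes with their activating enzymes. Of 41 genes listed, 33 were measured, and none passed the adjusted test in any comparison. No probe was matched to Psmg1, Psmg3, Paaf1, Uchl5, Ube3c, Ecpas, Nfe2l1 or Ddi2. The level of Nfe2l1, the factor named above, is therefore not known here. At an unadjusted p under 0.05 there was 1 of 33 for AngII on normal sodium, 3.03% against 7.26% of all probes. There were 0 for AngII on low sodium and 0 for low sodium without AngII, against 1.71% and 7.03%. Low sodium with AngII had 2, or 6.06%, a share below the 11.1% of all probes. These were Psmb8 and Psmb9, the subunits that replace Psmb5 and Psmb6 in the immunoproteasome. Psmb8 had -0.57, -0.06 and -0.72 in low sodium with AngII, against 0.53, -0.01 and 0.09 in normal sodium with AngII. The groups did not overlap, and the difference was -0.66 ± 0.20 (adjusted p = 0.3017). Psmb9 had 0.86, 1.18 and 1.08 in low sodium with AngII, against 1.37, 1.38 and 1.497 in normal sodium with AngII, again without overlap, a difference of -0.37 ± 0.14 (adjusted p = 0.3756). The constitutive partners Psmb5 and Psmb6 differed by 0.07 and 0.18 in the same comparison.

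The third interferon-induced subunit, Psmb10, differed by -0.05 ± 0.14 there and the activator genes Psme1 and Psme2 by 0.10 ± 0.10 and 0.11 ± 0.13, so the 5 genes of that list did not share a sign. In the interaction 3 of the 33 pathway genes had an unadjusted p under 0.05, 9.09% against 5.06% of all probes. AngII averaged over both diets had 0, against 2.88%, and low sodium averaged over infusion 1, 3.03% against 12.5%. Psmb8 and Psmb9 had the smallest p on the low side in the interaction, -0.63 ± 0.28 and -0.46 ± 0.20 (adjusted p = 0.8574 each). Ubqln1, which shuttles ubiquitin-tagged proteins to the cap, was the gene with a small p for AngII on normal sodium, -0.36 ± 0.13 (adjusted p = 0.6688), and its interaction was 0.43 ± 0.19. Among the next were the segregase gene Vcp at 0.34 ± 0.17 and the ubiquitin receptor gene Adrm1 at 0.51 ± 0.26, both for AngII on normal sodium, and the core assembly factor gene Pomp at 0.19 ± 0.09 for low sodium averaged over infusion. Vcp had 2.43, 3.07 and 3.02 in normal sodium, against 3.14, 3.24 and 3.15 with AngII. Adrm1 had -2.85, -2.30 and -2.24 in normal sodium, against -2.19, -1.57 and -2.09 with AngII. Both lowest values came from the array that stood apart, so part of each difference rested on it. The highest normal sodium value of Ubqln1, 1.85, also came from that array. Over the 33 genes the median difference was -0.03 for AngII on low sodium, 0.03 for AngII on normal sodium, 0.02 for low sodium with AngII and 0.03 for low sodium without it.

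Markers of other cells also differed between the diets, and with AngII on normal sodium, beside these values. All 5 macrophage markers lay below 0 for low sodium, with a summed level of 0.784 to 0.825 in low sodium with AngII and 1.13 to 1.27 in normal sodium with AngII, and of 0.594 to 0.918 in low sodium and 0.961 to 1.2 in normal sodium. All 6 endothelial markers lay below 0 in both comparisons, as did 6 of 6 fibroblast markers with AngII and 5 of 6 without it, and 0 of the markers passed the adjusted test. With AngII the unadjusted p was under 0.05 in 4 macrophage, 3 endothelial and 3 fibroblast markers, against 11.1% of all probes. Without AngII it was so in 2, 3 and 2 of them, against 7.03%. On the high side it was so without AngII in 2 smooth muscle markers and 1 red cell marker. The red cell pair lay below 0 with AngII (median -0.60, both with an unadjusted p under 0.05) and above 0 without it (0.46). Smooth muscle markers lay below 0 with AngII (5 of 5, median -0.11) and above 0 without it (5 of 5, 0.53), and atrial markers above 0 in 3 of 3 with AngII (0.98) and 2 of 3 without it (0.85, unadjusted p under 0.05 in 0). Cardiomyocyte markers lay above 0 in 0 of 6 with AngII (median -0.10) and 1 of 6 without it (-0.07), with an unadjusted p under 0.05 in 0. For AngII on normal sodium, where Psmd1, Psmd8 and the 9 non-overlapping genes were named, the red cell pair lay above 0 (median 1.12, both with an unadjusted p under 0.05), with a summed level of 92.0 to 109.9 in normal sodium with AngII and 51.9 to 67.6 in normal sodium. All 5 smooth muscle markers also lay above 0 there (median 0.61), with sums of 19.8 to 20.2 in normal sodium with AngII and 16.8 to 19.6 in normal sodium. Of 6 fibroblast markers 4 lay above 0 (median 0.19), with sums of 48.9 to 52.5 in normal sodium with AngII and 44.0 to 48.6 in normal sodium. The unadjusted p was under 0.05 in 2 smooth muscle and 2 fibroblast markers, against 7.26% of all probes. Whether these shifts bear on the values of Psmb8, Psmb9 or the 37 genes was not tested.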

How the data were processed

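Left ventricles were hybridised to 12 one-colour (Cy3) Agilent arrays. Per the file headers, the deposited signal intensity was made by version 10.7.3.1 of Agilent's Feature Extraction, which subtracted and detrended the background array by array, whereas the submitters' processing notes name version 11.0.1.1, R 3.3.04 and limma. The authors' own matrix of log2 values, normalised by a method not stated, served as an alternative. The deposited files also hold other columns with flags for spots above background, saturated or outlying.

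Control spots (1377) and outlier-flagged spots were left out, and spots of a probe were averaged. The log2 signal was reduced by the array's 75th percentile over non-control spots. Of 30367 probes, 20020 were tested, those with a share of at least 0.5 of their spots well above background on every array of some group. Identifiers were matched to symbols through RefSeq (GRCr8, names and promoters), and 18758 probes got 1 symbol and 11609 none.

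R 4.3.3 with limma 3.58.1 (and version 1.17.8 of data.table for reading) fitted 1 mean per group over all 12 arrays, with Benjamini-Hochberg adjustment over all tested probes. Replicate numbers equal slides, and each slide holds 1 array of every group at a fixed position, so position and group cannot be told apart. Correlations of same-numbered arrays' deviations from group means were 0.05 to 0.43, above 0.1 in 17 of 18 pairs, against a median of -0.18 for different numbers. A threshold of 0.1 in every pair was not met, so the slide is an alternative, printed where it moves a count. The p-values measure the spread between arrays of a group, which differ in both rat and slide.

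The genes, lists and motifs were chosen with earlier results of these data known. Named in each comparison were Psmb5, Psmb6 and Psmb7 and the 2 genes with the smallest p in each direction. Their values are printed per array, as group means or as differences alone. Values of Psma2 and of the genes named as non-overlapping were chosen after seeing them.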

Additional observations from a re-analysis of the deposited data

How the results depend on the processing

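Across 30 alternative settings, 0 of the 37 genes passed the adjusted test in any comparison wherever one was fitted. With the replicate number (slide) as a block, 0 genes and 0 probes passed too. The counts of genes whose arrays did not overlap moved with the scaling, as given with them. Of 1470 values of named genes, 78 changed sign. Of all probes, normexp (on median pixel signals, as mean signals were not used here) called 5 for AngII on normal sodium, 3 for low sodium with AngII and 4 for low sodium averaged. The authors' matrix called 5 and 1 of the first and second, the stricter filter 3 and 2, quantile normalization 1 for low sodium with AngII and no filter 1 for low sodium averaged. Array weights called 3 for AngII on low sodium, 842 for low sodium with AngII and 413 for low sodium averaged, with none of the 37 genes among them. Leaving out arrays called 0 to 9 probes for AngII on normal sodium, 0 to 1 for low sodium without AngII, 0 to 3 with AngII and 0 to 20 averaged.

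The median difference of the 37 genes moved by more than 0.042 in several settings, whose cause was not tested. That threshold is the SD within groups of the genes' median deviation on single arrays. It is not the spread of a difference between groups, and values within a slide rest on single arrays. For AngII on normal sodium the median difference was -0.0832 under median scaling, -0.0630 within slide 1 and -0.0911 within slide 2, and -0.0629 to -0.0012 with arrays left out. For AngII on low sodium it was -0.0905 within slide 3. For low sodium without AngII it was 0.0684 under median scaling, -0.0480 within slide 2, 0.0707 within slide 3 and -0.0376 to 0.0432 with arrays left out. For low sodium with AngII it was 0.0427 after normexp, 0.113 under median scaling, -0.0703 in the authors' matrix, 0.0456 and 0.0467 within slides 1 and 2, and -0.0102 to 0.0377 with arrays left out. For low sodium averaged it was 0.0970 under median scaling. The interaction median was 0.0547 after normexp, 0.0667 under median scaling, -0.0620 in the authors' matrix, 0.0726, 0.0746 and -0.0831 within slides 1, 2 and 3, 0.0482 with the percentile taken over probes and -0.0581 to 0.0805 with arrays left out. The percentile over probes, the median pixel signal and the keeping of outlier-flagged spots were chosen after seeing the data. Intervals within 1.5-fold for 33 to 35 of the 37 genes are what 3 arrays per group resolved here.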
